A study of Mus musculus with 4 samples.

Results

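The genes described here encode 7 molecules through which antigen-presenting cells and T cells exchange a second signal beside antigen: Cd80, Cd86, Cd40, Cd83, Cd274, Pdcd1lg2 and Cd28. They were chosen by name, as genes of costimulation and coinhibition, and every probe set that named 1 of them alone was read. That gave 13 probe sets out of 20380 that name a single gene, and 7 genes out of 12393. Cd80 had 4 probe sets, Cd86, Cd40 and Cd28 had 2 each, and Cd83, Cd274 and Pdcd1lg2 had 1 each.

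The genes were measured in 4 myeloid populations of C57BL/6J mice, isolated from the lamina propria of the large intestine, which is the connective tissue below its epithelium. All were told apart by the integrins CD11c and CD11b, and those that carried both also by the fractalkine receptor CX3CR1. The CX3CR1high macrophages were CD11c+ CD11b+ CX3CR1high, and the CX3CR1- cells were CD11c+ CD11b+ without CX3CR1. The CD11b+ cells lacked CD11c, and the CD11chigh dendritic cells (DCs) lacked CD11b. Only the last are called DCs below, although the label of the CX3CR1- cells names them DC as well. The CD11b+ cells are labelled Mf, a short form of macrophage that the label of the CX3CR1high macrophages also holds. No CX3CR1 status is given for the CD11b+ cells and the DCs. No genotype, treatment, age or number of mice is given for any population, and 1 Affymetrix 3' array was made per population. There were thus no replicates and no test, and every difference below is one between 2 arrays. Values are linear signal intensities, which the authors had brought to 1 common trimmed mean.

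A T cell that meets its antigen needs a second signal through CD28, whose ligands are CD80 (B7-1) and CD86 (B7-2) on the presenting cell. The same 2 ligands also bind CTLA-4, which restrains the T cell. PD-L1 (Cd274) and PD-L2 (Pdcd1lg2) bind the inhibitory receptor PD-1. CD40 is the receptor by which T cells, through CD40 ligand, activate macrophages, DCs and B cells. CD83 is a surface marker of mature DCs that keeps MHC class II and CD86 on the cell surface. In the intestine, resident macrophages are known for taking up microbes without strong activation of T cells, and migrating DCs for carrying antigen to lymph nodes.

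Signals under 103, the median of all probe sets pooled over the 4 arrays, were treated as at a floor, so a fold against such a signal is written as at least N-fold. Differences of 2-fold or more are called higher or lower. The only spread at hand was the disagreement among probe sets that read 1 gene, whose log2 ratios had an SD of 0.31 to 0.52 over the 6 pairs of arrays. It holds no difference between mice or collections. The ratio of 3' over 5' signals of the Gapdh control, which rises with RNA degradation, was lowest for the DCs at 0.791, followed by the CX3CR1high macrophages at 1.08, the CD11b+ cells at 2.17 and the CX3CR1- cells at 3.40. All 10 of 10 macrophage markers were highest in the CX3CR1high macrophages, and 6 of 8 conventional DC markers were highest in the DCs. Some markers of both lists were above the floor in every population. In the CX3CR1- cells all 10 macrophage markers and 7 of 8 conventional DC markers were above the floor. These counts were 7 and 8 in the DCs, 10 and 5 in the CX3CR1high macrophages, and 10 and 4 in the CD11b+ cells. Flt3, Itgae and Xcr1 were under the floor in both the CX3CR1high macrophages and the CD11b+ cells. The counts alone therefore do not show DC RNA in these populations. Summed over the 8 measured markers of mature DCs, the CX3CR1- cells had a signal of 44495 and the DCs 31151, against 5204 for the CX3CR1high macrophages and 4020 for the CD11b+ cells. In bulk samples such as these, fewer cells of a type and less RNA per cell cannot be told apart.

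The 2 B7 ligands of CD28 differed from each other in pattern. Cd80 was highest in the CX3CR1- cells by each of its 3 probe sets with signals above the floor, and lowest in the CX3CR1high macrophages by each. Cd86 was high in all 4 populations, and its 2 probe sets put different populations first.

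Cd80 was read first from its brightest probe set, 1432826_a_at. Its signal was 3673 for the CX3CR1- cells, 1560 for the DCs, 1017 for the CD11b+ cells and 845 for the CX3CR1high macrophages. The CX3CR1- cells therefore stood 2.35-fold above the DCs, 3.61-fold above the CD11b+ cells and 4.35-fold above the CX3CR1high macrophages, while the other populations lay within 2-fold of each other. By probe set 1427717_at the CX3CR1- cells had 1485, the CD11b+ cells 751, the DCs 585 and the CX3CR1high macrophages 264. By probe set 1451950_a_at the CX3CR1- cells had 1118, the DCs 1040, the CD11b+ cells 463 and the CX3CR1high macrophages 294. All 3 probe sets thus placed the CX3CR1- cells at the top and the CX3CR1high macrophages at the bottom, 3.81-fold to 5.63-fold apart. They disagreed on the DCs, which were 2.54-fold below the CX3CR1- cells by 1427717_at and only 1.08-fold below them by 1451950_a_at. The remaining probe set, 1454372_at, was under the floor on every array and gave no ratio.

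For Cd86, probe set 1420404_at put the CX3CR1- cells at 6841, the DCs at 5605, the CX3CR1high macrophages at 5348 and the CD11b+ cells at 4282. No pair of populations reached 2-fold there, the widest gap being 1.60-fold. Probe set 1449858_at put the DCs at 4305, the CX3CR1high macrophages at 3449, the CX3CR1- cells at 1940 and the CD11b+ cells at 1654. The DCs were then 2.22-fold above the CX3CR1- cells, where the first probe set had them 1.22-fold below. Both probe sets had the CD11b+ cells lowest, and both had the DCs and the CX3CR1high macrophages within 1.25-fold of each other.

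**Figure D1:**
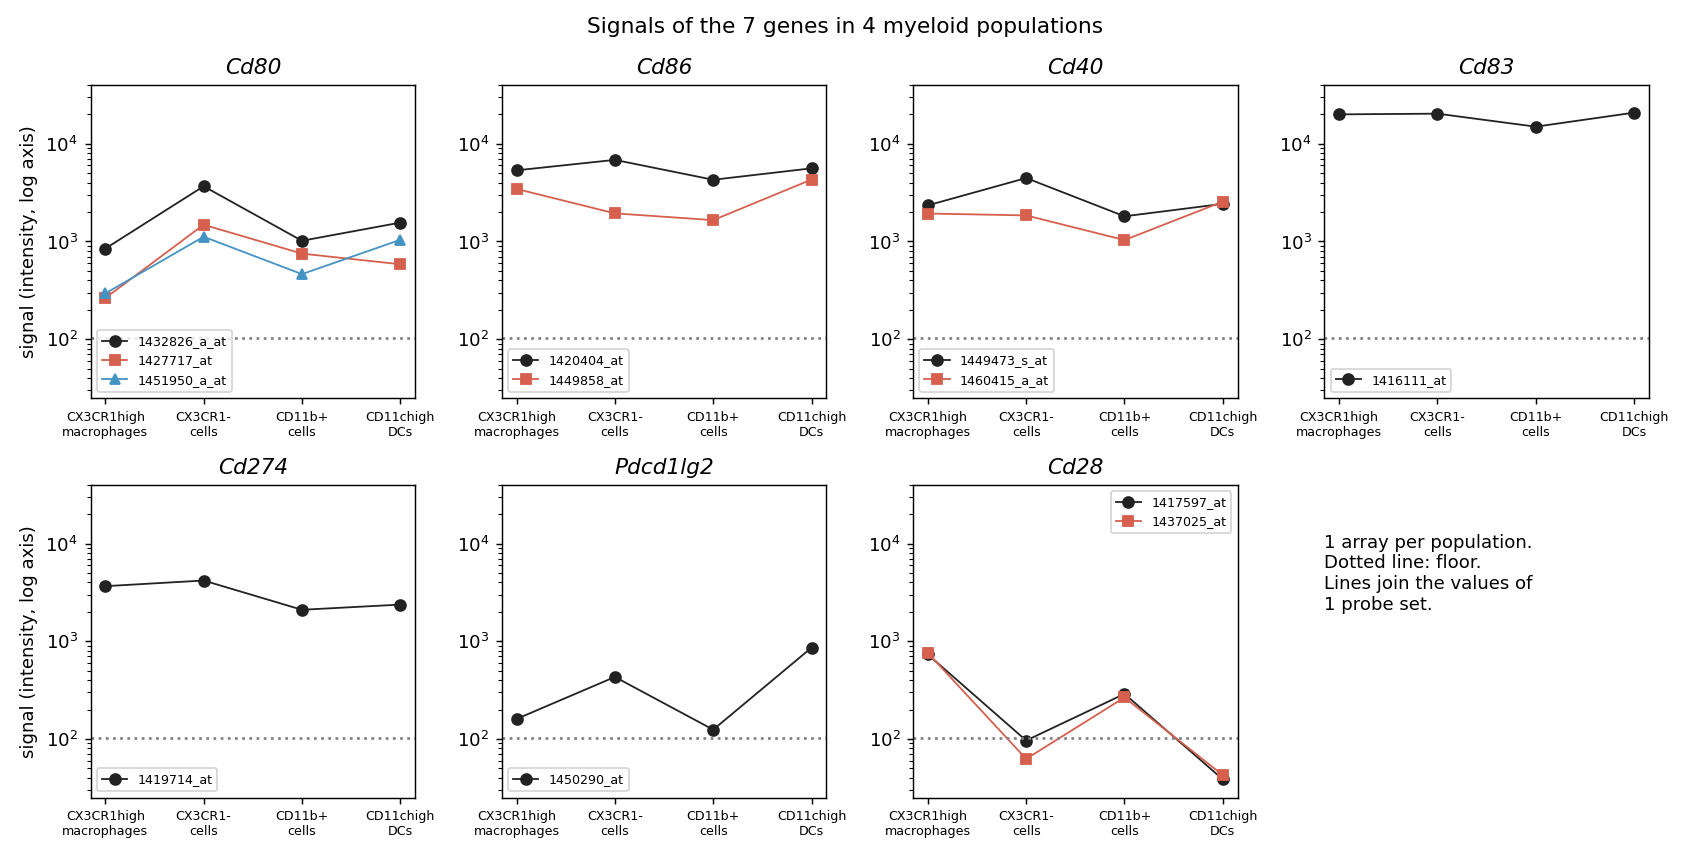
Signals of the 7 genes (intensity units, log axis) in the 4 populations, 1 array each, with 1 line per probe set and the floor of 103 dotted. Cd80 peaks in the CX3CR1- cells and Cd28 in the CX3CR1high macrophages (732 and 759.5). Pdcd1lg2 is highest in the DCs (859), 1.99-fold above the CX3CR1- cells (431). Cd83 stays between 14954 and 20826.

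The receptor of these ligands, CD28, is known as a T cell protein. Its gene was highest where Cd80 was lowest, in the CX3CR1high macrophages. Probe set 1417597_at gave these cells 732, the CD11b+ cells 289, the CX3CR1- cells 96.4 and the DCs 38.6. Probe set 1437025_at gave 759.5, 266, 62.5 and 42.6 in the same order. Cd28 was thus above the floor in the CX3CR1high macrophages and the CD11b+ cells and under it in both other populations, by both probe sets. The CX3CR1high macrophages were 2.53-fold above the CD11b+ cells by the first probe set and 2.86-fold by the second. Over the CX3CR1- cells and the DCs they were at least 7.12-fold higher by the first, and by the second at least 7.38-fold. The CD11b+ cells were at least 2.81-fold above both.

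T cell genes were measured beside it. The genes of the CD3 complex that carries the T cell receptor's signal, Cd3d, Cd3e, Cd3g and Cd247, were under the floor on all 4 arrays, with 85.8 (Cd3d in the CD11b+ cells) as their highest signal. Of the 8 measured T cell markers, 2 were above the floor in the CX3CR1high macrophages, the kinase gene Zap70 at 692 and the adhesion gene Cd2 at 106. The list summed to 1546 for the CD11b+ cells, 1099 for the CX3CR1high macrophages, 1011 for the CX3CR1- cells and 770 for the DCs. The largest single part of each sum was 1 probe set of Zap70, at 1045, 692, 466 and 427 in this order of populations. By it the CD11b+ cells were past 2-fold over the CX3CR1- cells and the DCs, but the CX3CR1high macrophages over neither. The other Zap70 probe set was under the floor on every array, at 26.1 or less. Summed macrophage markers followed the full order of Cd28, at 154688 for the CX3CR1high macrophages, 85536 for the CD11b+ cells, 65387 for the CX3CR1- cells and 13119 for the DCs. So did the sum of plasmacytoid DC markers, at 3294, 2505, 1997 and 1922, but not each gene in it. Tcf4 kept this order, while Bst2 was lowest in the CX3CR1- cells. As read for the sum, Ccr9 was above the floor in the DCs alone. Spib was above the floor only in the CX3CR1- cells and the DCs, where Cd28 was under it. Epithelial markers were highest in the same population as Cd28 and lowest where it came next. All 9 measured epithelial markers were above the floor in the CX3CR1high macrophages, against 7 in each other population, and their signals summed to 16159 there, against 6866 for the CX3CR1- cells, 3967 for the DCs and 2849 for the CD11b+ cells. The part of any of these cells in the Cd28 signal was not tested.

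**Figure D2:**
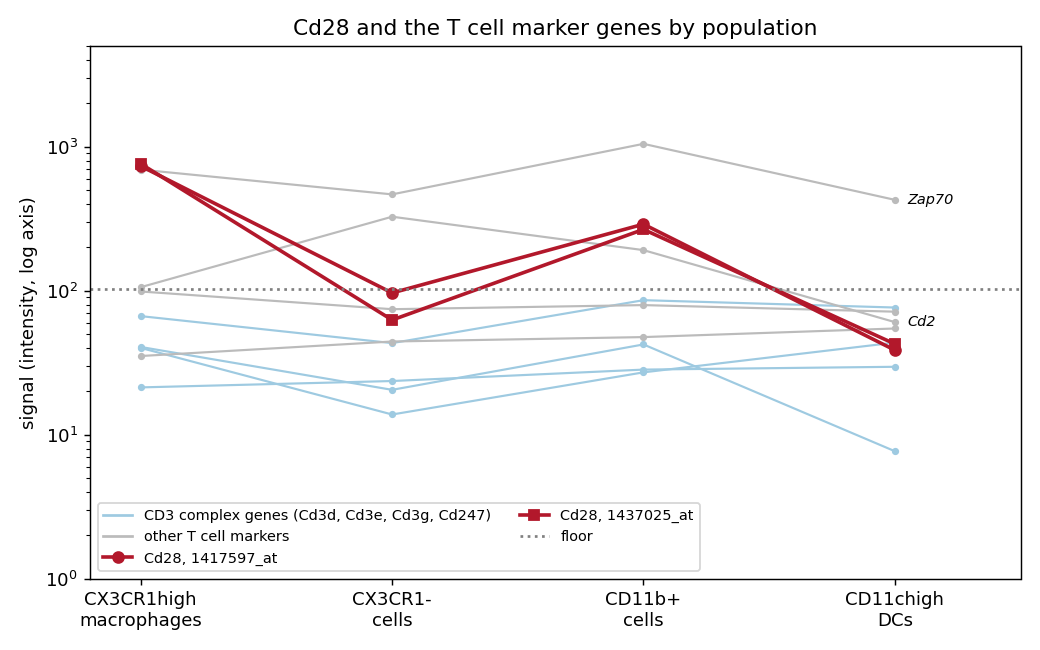
Signals (intensity units, log axis) of both Cd28 probe sets and of the 8 measured T cell markers in the 4 populations, 1 array each, with the floor dotted. Cd28 reaches 732 and 759.5 in the CX3CR1high macrophages, while all 4 CD3 genes stay under the floor on every array.

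CD40 and CD83 mark activation of the presenting cell. Cd40 was measured well above the floor everywhere, and its probe sets disagreed on the order as those of Cd86 did. By probe set 1449473_s_at, which can also match related transcripts, the CX3CR1- cells had 4461, the DCs 2426, the CX3CR1high macrophages 2343 and the CD11b+ cells 1810. By probe set 1460415_a_at the DCs had 2558, the CX3CR1high macrophages 1932, the CX3CR1- cells 1849 and the CD11b+ cells 1034. The CX3CR1- cells were 1.84-fold above the DCs by the first and 1.38-fold below them by the second. By both, the CD11b+ cells were lowest, 2.47-fold under the CX3CR1- cells by the first and 2.48-fold under the DCs by the second.

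Cd83 was the flattest of the 7, at 20826 for the DCs, 20323 for the CX3CR1- cells, 19995 for the CX3CR1high macrophages and 14954 for the CD11b+ cells. No 2 populations differed by more than 1.39-fold. The highest signal of any probe set was between 38968 and 66335 on these arrays, above that of Cd83 on each. Whether single probes of Cd83 were saturated cannot be read from signals per probe set.

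The disagreement between probe sets of Cd86 and of Cd40 ran in step with the control ratios. Cd86 probe set 1420404_at over 1449858_at was 1.30 for the DCs, 1.55 for the CX3CR1high macrophages, 2.59 for the CD11b+ cells and 3.53 for the CX3CR1- cells. For Cd40, probe set 1449473_s_at over 1460415_a_at was 0.948, 1.21, 1.75 and 2.41 in this order. The Gapdh control ratio rose through the same populations, from 0.791 to 1.08, 2.17 and 3.40. The Actb control gave 1.11, 1.68, 3.18 and 2.76, with the last 2 populations exchanged. Cd80 followed in part, with 1427717_at over 1451950_a_at at 0.562, 0.897, 1.62 and 1.33 and 1432826_a_at over 1451950_a_at at 1.50, 2.88, 2.19 and 3.28. Over all genes with several probe sets, the SD of log2 ratios was widest, 0.52, between the CX3CR1- cells and the DCs, whose Gapdh ratios lay furthest apart. The other pairs did not all follow the Gapdh ratios. The SD was 0.39 between the CX3CR1high macrophages and the DCs, whose Gapdh ratios lay closest. Between the CD11b+ cells and the CX3CR1- cells it was 0.31, and between the CD11b+ cells and the CX3CR1high macrophages 0.33. Whether RNA integrity has a part in the order of Cd86 and Cd40 was not tested.

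**Figure D3:**
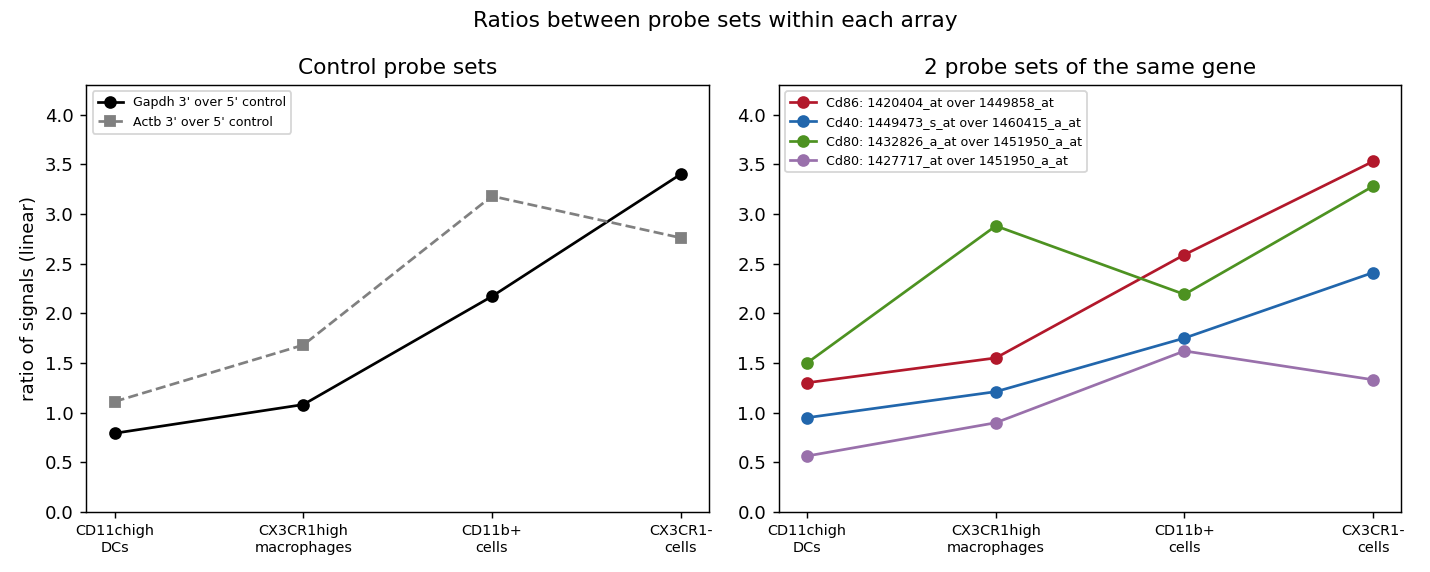
Left, 3' over 5' signal ratios of the Gapdh and Actb controls, and right, signal ratios of 2 probe sets that read 1 gene (both linear), on the 4 arrays in order of the Gapdh ratio. The Cd86 ratio climbs from 1.30 to 3.53 and the Cd40 ratio from 0.948 to 2.41 in the order of the Gapdh ratio, from 0.791 to 3.40.

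The PD-1 ligands parted from each other. Cd274, which encodes PD-L1, was high in all 4 populations. Pdcd1lg2, which encodes PD-L2, was higher in the DCs and the CX3CR1- cells than in both other populations. Both genes lie on chromosome 19, with 1 gene between them, a noncoding RNA, in the RefSeq annotation.

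Cd274 gave the CX3CR1- cells a signal of 4181, the CX3CR1high macrophages 3660, the DCs 2371 and the CD11b+ cells 2098. The widest gap was 1.99-fold, just under the limit for a call, and no neighbours in this order differed by 2-fold. Pdcd1lg2 gave the DCs 859, the CX3CR1- cells 431, the CX3CR1high macrophages 160.2 and the CD11b+ cells 124. The DCs were 5.36-fold above the CX3CR1high macrophages and 6.91-fold above the CD11b+ cells. The CX3CR1- cells lay between, 1.99-fold under the DCs and 2.69-fold and 3.47-fold above the other populations. Signals in the CX3CR1high macrophages and the CD11b+ cells were close to the floor of 103, and 1.29-fold apart. Both populations where Pdcd1lg2 was high also had the high sums of mature DC markers, 31151 and 44495 against 5204 and 4020, and the part of such cells in its signal was not tested.

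The 250 bases before the start of each PD-1 ligand gene are shown because the 2 neighbours had unlike patterns. They are from RefSeq's tables for GRCm38.p6, which held 3 of the 7 genes, on the plus strand at chr19:29367188-29367437 for Cd274 and chr19:29410669-29410918 for Pdcd1lg2. Capitals mark matches, on either strand, to the NF-kB consensus, to GAGGAA (the core bound by PU.1 and related ETS factors), to GAAANNGAAA (interferon-stimulated response element type) and to TTCNNNGAA (STAT type).
Cd274: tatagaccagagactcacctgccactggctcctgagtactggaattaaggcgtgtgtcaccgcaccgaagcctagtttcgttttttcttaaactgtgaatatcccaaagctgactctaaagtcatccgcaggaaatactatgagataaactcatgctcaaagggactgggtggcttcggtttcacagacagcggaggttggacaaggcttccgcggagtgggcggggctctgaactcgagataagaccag
Pdcd1lg2: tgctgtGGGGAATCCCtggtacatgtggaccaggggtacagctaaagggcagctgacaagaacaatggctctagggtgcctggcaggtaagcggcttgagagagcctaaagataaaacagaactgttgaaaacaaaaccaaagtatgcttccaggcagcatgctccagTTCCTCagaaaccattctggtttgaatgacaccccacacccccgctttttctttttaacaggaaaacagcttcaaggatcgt
The Pdcd1lg2 window held 1 NF-kB consensus, which reads as a match on both strands and begins 244 bases before the start, and 1 GAGGAA on the minus strand that begins 82 bases before it. Of 32851 windows of the same length, 7.25% held the NF-kB consensus and 23.3% held GAGGAA. The Cd274 window, like that of Cd80, held none of the 4 motifs, of which the other 2 were found in 2.98% (GAAANNGAAA) and 7.02% (TTCNNNGAA) of windows. The matches are letters in a window, and no binding was measured here.

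Taken by pairs of populations, between 1 and 4 of the 7 genes passed 2-fold. The CX3CR1- cells were higher than the CD11b+ cells for 3 of 7 genes, Cd80, Cd40 and Pdcd1lg2, where 3.55% of all genes with a ratio were higher. By their other probe sets Cd40 was 1.79-fold higher, and Cd80 1.98-fold by 1427717_at, so that with the next brightest probe sets, or without shared probe set types, the count was 1. Cd28 alone was lower there, against 5.19% of all genes. The median log2 ratio was 0.99 over the 7 genes and -0.06 over all genes. Over the CX3CR1high macrophages, the CX3CR1- cells were higher for Cd80 and Pdcd1lg2, 2 of 7 genes against a background of 6.54%, and lower for Cd28, 1 of 7 against 8.56%. Over the DCs they were higher for Cd80, 1 of the 6 genes with a ratio against 13.7%, and lower for none, against 8.70%.

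The CX3CR1high macrophages were higher than the CD11b+ cells for Cd28 alone, 1 of 7 genes against 4.66% of all genes, and lower for none, against 5.83%. Compared with the DCs they were higher for Cd28, against 17.4%, and lower for Pdcd1lg2, against 10.2%, each 1 of 7 genes. The CD11b+ cells gave the same split against the DCs, with Cd28 higher (17.0% of all genes) and Pdcd1lg2 lower (10.4%). In these last 2 comparisons the median log2 ratio of the 7 genes was -0.06 for the CX3CR1high macrophages and -0.42 for the CD11b+ cells, against 0.02 and 0.07 over all genes. Counts of 1 in 7 are near the background in most of these comparisons, and with 1 array each they describe these arrays only. Cd86, Cd83 and Cd274 passed 2-fold in none of the 6 pairs by their brightest probe sets, but Cd86 did so in 3 pairs by its other probe set.

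**Figure D4:**
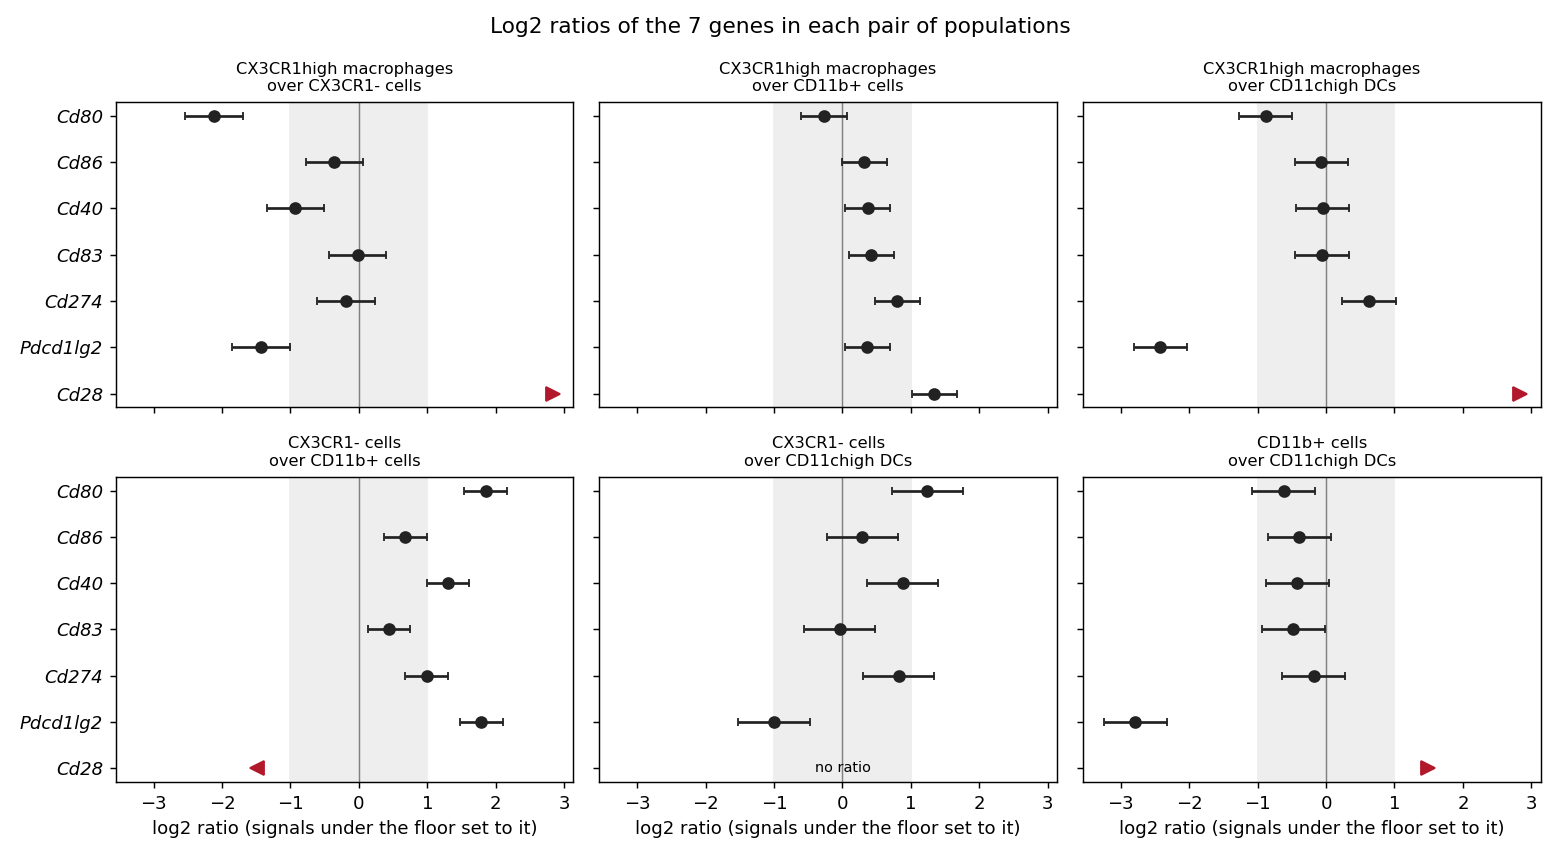
Log2 ratios of the 7 genes by their brightest probe sets in the 6 pairs of populations, with the zone under 2-fold in grey. Bars show the SD between probe sets of the same gene in that pair (0.31 to 0.52), and triangles are bounds that point to larger differences. Cd28, Pdcd1lg2, Cd80 and, in 1 pair, Cd40 lie outside the grey zone.

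Other genes of these pathways were read from lists. Among B7 relatives, 4 of 8 listed genes were measured. Vsir, which encodes the inhibitory ligand VISTA, was lowest in the DCs, at 240 against 1681 for the CX3CR1- cells, 2108 for the CD11b+ cells and 2994 for the CX3CR1high macrophages. The DCs were 7.01-fold to 12.5-fold below the other populations. By its other probe set they were lowest too, at 191 against 543, 1008 and 1499. Cd276 (B7-H3) was under the floor in the DCs alone, and reached 312 with the CX3CR1high macrophages, 172 with the CX3CR1- cells and 151 with the CD11b+ cells. The ICOS ligand gene Icosl ran from 215 to 407, with no pair past 2-fold, and Btn1a1 was under the floor everywhere. Vsir and Cd276 were thus lowest where Pdcd1lg2 was highest.

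Costimulatory ligands of the TNF family had 5 of 7 listed genes measured, and none passed 2-fold between the CX3CR1high macrophages and the CX3CR1- cells. Tnfsf9, the 4-1BB ligand gene, was also lowest in the DCs, at 415 against 1108 to 1697. Tnfsf4, which encodes OX40 ligand, was under the floor in the CX3CR1high macrophages and the CD11b+ cells, and stood at 211 in the DCs. Tnfsf14 was under the floor in the DCs alone.

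Of 15 listed T cell receptors of costimulation and coinhibition, 12 were measured. Against the CX3CR1high macrophages, the DCs were higher for 3 of 7 genes with a ratio (Ctla4, Tnfrsf18 and Havcr2) and lower for 0, where 10.2% and 17.4% of all genes were. The CX3CR1- cells were higher for 3 of 7 (Tnfrsf9, Tnfrsf18 and Havcr2) and lower for 0, where 6.54% and 8.56% of all genes were. Havcr2 encodes TIM-3, an inhibitory receptor that is also known on DCs, and gave the DCs 5316, the CX3CR1- cells 1714, the CD11b+ cells 1224 and the CX3CR1high macrophages 731. Ctla4, a CD28 relative that binds the same ligands, gave the DCs 376, the CD11b+ cells 367, the CX3CR1- cells 203.5 and the CX3CR1high macrophages 140. Its lowest population was thus the one where Cd28 was highest. Pdcd1, which encodes PD-1, and Cd40lg, which encodes CD40 ligand, were under the floor on all 4 arrays.

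All 13 listed genes of other inhibitory and adhesion partners were measured, and 12 had a ratio between the CX3CR1high macrophages and the DCs. Of these, 3 were higher in the CX3CR1high macrophages, namely Sirpa (10.4-fold, 3724 against 359), Ceacam1 (5.57-fold) and Cd200r1, and 2 were lower, Cd200 and Cd47. Over all genes 17.4% were higher and 10.2% lower in this pair, not far from these counts. Sirpa encodes the receptor of CD47, and Cd200r1 that of CD200. By another probe set Sirpa gave the CX3CR1high macrophages 833 against 211 in the DCs, a smaller gap. Cd200r1 was low, at 236 in the CX3CR1high macrophages and under the floor in the DCs. Cd200 gave the DCs 622 against 300. Cd47 passed 2-fold by its brightest probe set only (6637 against 3118), while others gave 3637 against 2863 and 2271 against 1651. The adhesion gene Cd48 gave the DCs 3007, the CX3CR1high macrophages 2327, the CD11b+ cells 873 and the CX3CR1- cells 582.

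Genes of CD40 and NF-kB signalling were above the floor in every population, 14 measured of 16 listed. Between the CX3CR1- cells and the CX3CR1high macrophages, the CX3CR1- cells were higher for 4 of 14 and lower for 0, against 6.54% and 8.56% of all genes. The list's median log2 ratio, CX3CR1high macrophages over CX3CR1- cells, was -0.44 against 0.02 for all genes. Map3k14, the NIK kinase of the alternative NF-kB route that CD40 engages, was 6.93-fold higher in the CX3CR1- cells (1699 against 245), and the CD40 adaptor Traf1 5.12-fold (4990 against 975). Nfkb2 was 2.83-fold and Birc2 3.06-fold higher. These folds are from the brightest probe sets. By its other probe set Map3k14 gave the CX3CR1- cells 578.5 against 192, a smaller gap. Nfkb2 by its other probe set gave 1334 against 726, which is under 2-fold. The DCs were also above the CX3CR1high macrophages for Map3k14 (10.3-fold, 2529) and Traf1 (5.13-fold, 5006), but not for Nfkb2, at 1061 against 1253. The alternative-route subunit gene Relb lay between 1556 and 2249 with no pair past 2-fold. Tnfaip3, which encodes the NF-kB inhibitor A20, went the other way, with the CX3CR1high macrophages 3.10-fold above the DCs (339 against 109.5).

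**Figure D5:**
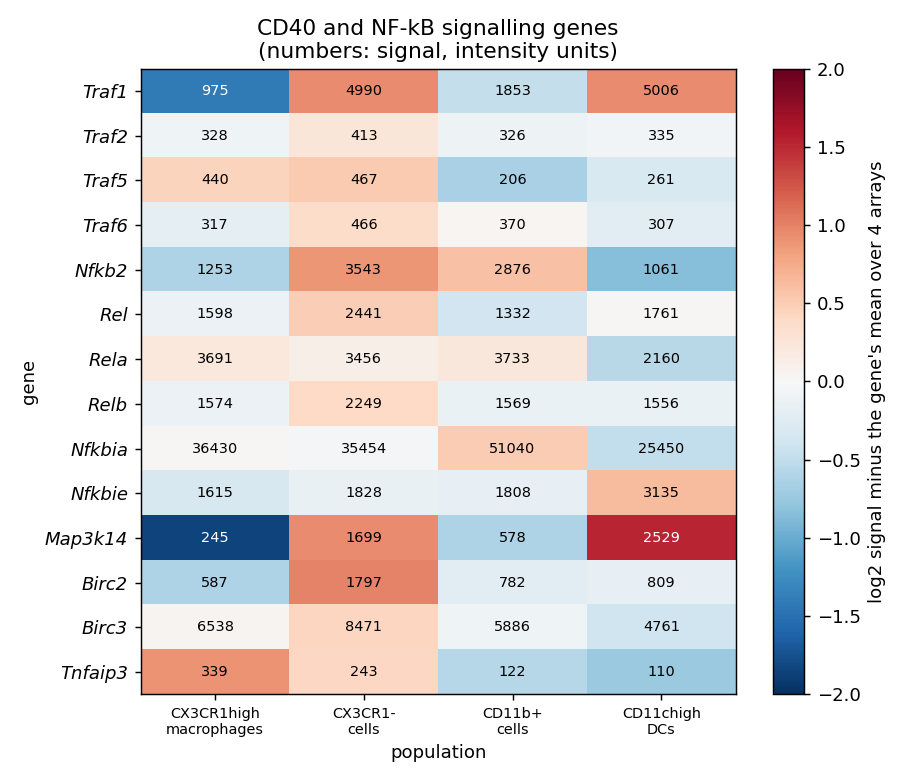
Signals of the 14 measured CD40 and NF-kB signalling genes (rows) in the 4 populations (columns), 1 array each, coloured by log2 signal minus the gene's mean over the arrays. Map3k14 and Traf1 are lowest in the CX3CR1high macrophages (245 and 975). They are high in both the DCs (2529 and 5006) and the CX3CR1- cells (1699 and 4990).

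On the interferon gamma route that raises the PD-1 ligands, 7 of 8 listed genes were measured. The kinase gene Jak2 lies near Cd274 on chromosome 19, with 3 protein-coding genes between them. It gave the DCs 7962, the CX3CR1- cells 6333, the CD11b+ cells 2643 and the CX3CR1high macrophages 1878, and was 4.24-fold higher in the DCs than in the CX3CR1high macrophages. By this probe set both DCs and CX3CR1- cells were thus above both other populations for Jak2, as for Pdcd1lg2, and the order of Cd274 differed. The other Jak2 probe set gave 2571, 877, 577 and 529 in the same order of populations. There the CX3CR1- cells lay within 2-fold of the CD11b+ cells and of the CX3CR1high macrophages. The receptor gene Ifngr1 was 2.86-fold higher in the DCs than in the CX3CR1high macrophages, and the kinase gene Jak1 2.07-fold lower. Of 5 listed genes for the surface turnover of these molecules, 2 were measured. Cmtm6, which encodes a protein that keeps PD-L1 on the cell surface, was 2.32-fold to 2.75-fold higher in the DCs than in each other population, with 4481 against 1927, 1747 and 1631. By its other probe set the DCs were highest too, at 2547 against 1243 to 1609.

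Genes whose pattern over the 4 populations was most like each member were sought by the root mean square difference of log2 signals. Each gene was read from its brightest probe set, signals under the floor were set to it, and each gene was centred. The comparison took in 3213 genes that then varied by at least 2-fold. For Cd86, Cd83 and Cd274, which varied by less than 2-fold, every gene compared thus ranged more widely than the member itself. With 4 populations many genes lie close, so these likenesses are descriptions only. For Cd80 the nearest were the transcription factor gene Stat5a (0.12), Poglut1 (0.13) and Ing2 (0.14). Stat5a had 2001 in the CX3CR1- cells against 395 to 895 elsewhere. Poglut1 lies near Cd80 on chromosome 16, with 1 protein-coding gene between them. Nearest to Pdcd1lg2 were Kmo, an enzyme gene of the kynurenine pathway (0.07, with 747 for the DCs and 381 for the CX3CR1- cells), Tbc1d8 and Calcb (0.15 each). Calcb was under the floor in the CX3CR1high macrophages and the CD11b+ cells. Cd28 was most like Hgsnat and Atp1b1 (0.17 each) and Tlr7 (0.19), and Tlr7, a receptor for RNA, ran from 864 in the CX3CR1high macrophages to 28.6 in the DCs. Cd28 in the CX3CR1- cells and the DCs, and Tlr7 in the DCs, were compared at the floor, which limits these likenesses.

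For the members that varied less, Cd40 had Zfp219 (0.04), Fbxo11 (0.08) and Sh3bp4 (0.09) nearest. Cd274 had Reg4 (0.08), Traf5 (0.10) and Usp18 (0.12). Cd86 was nearest to Ahcyl2 (0.17), Etv3 and Sh3bp4 (0.18 each), and Cd83 to Mau2 (0.19), Epha2 and Pmvk (0.23 each). The genes named for Cd40 and Cd86 hold for their brightest probe sets only, because their other probe sets ordered the populations differently. Within 0.25 of a member lay between 5 genes, for Cd28, and 39 genes, for Cd40.

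Markers of the remaining cell types had their highest sums in different populations. Monocyte and neutrophil markers were highest in the CD11b+ cells for 6 of 7 measured genes, and fibroblast, muscle and endothelial markers for 7 of 10. In the CD11b+ cells, the summed signals of these lists were 24536 and 61323, and B and plasma cell markers reached 34813, nearly all of it Jchain. The natural killer and innate lymphoid list summed to 7613 in the CX3CR1- cells and to 1389 to 2868 elsewhere, most of it Il7r. In the CX3CR1- cells Il7r was the only 1 of its 6 measured markers above the floor. Eosinophil and mast cell markers were above the floor in the CX3CR1- cells for 3 of 8 genes, among them Siglecf at 544, and summed to 875 there against 123 to 488. The sums of this list, of the lymphoid list and of the mature DC markers (44495) were highest where Cd80 was highest. The part of any such cells in the Cd80 signal was not tested.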

How the data were processed

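RNA of each of the 4 populations was hybridised to 1 Affymetrix 3' array, per the labels' protocols. The authors deposited 1 linear intensity per probe set, computed with MAS5 per the submitters' processing notes (version not given in the sources used here). Trimmed by 2% at each end, every array had a mean of 500. No further scaling was applied.

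Probe sets were named from the platform's probe table, and those naming 1 gene were used. Each gene was read from its probe set of highest mean log2 signal, preferring those not ending in _x_at, and all probe sets of the 7 members are given. Of 174 listed genes in the member list and 18 other lists, 28 had no single-gene probe set and were not analysed here. Ratios over the 6 pairs used a floor of 103, and genes with both signals under it had no ratio. For each member the 3 genes of most like pattern are named, passing over Riken and predicted names. Members and lists were chosen with earlier results of these data known. The 9 alternatives are 2 other floors, no floor, a pseudocount, 2 scalings, 2 probe set choices and a 4-fold limit. Reading the members from their other probe sets was added after seeing the data. The ratio step was tested on simulated data. Python 3.11.15 and pandas 2.3.3 were used. The number of arrays limits the precision, and no p-value can be had.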

Additional observations from a re-analysis of the deposited data

How the results depend on the processing

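The 13 member ratios past 2-fold kept their direction and their 2-fold size with the lower floor (the pooled 25th percentile), no floor, a pseudocount, quantile normalization, equal medians and the mean over probe sets. No ratio past 2-fold turned its direction under any alternative run. With the floor at the 75th percentile only 4 stayed past 2-fold, and the members called fell to 0 for the CX3CR1high macrophages over each other population, for the CD11b+ cells over the CX3CR1- cells and over the DCs, and for the DCs over the CD11b+ cells and over the CX3CR1high macrophages, and to 1 for the CX3CR1- cells over the CX3CR1high macrophages. That floor, 453, lies above most Cd28 and Pdcd1lg2 signals. At a 4-fold limit the counts were 0 for the CX3CR1- cells over the CD11b+ cells and over the DCs. They were also 0 for the CX3CR1high macrophages over the CD11b+ cells. For the CD11b+ cells over the CX3CR1- cells and over the DCs they were 0 too. The count was 1 for the CX3CR1- cells over the CX3CR1high macrophages, where 1.26% of all genes with a ratio passed 4-fold. By populations and direction, this share ran from 0.488% to 6.06%. Counts of 0 among so few members are near that background. Without shared probe set types, which drops both Cd40 probe sets, the CX3CR1- cells over the CD11b+ cells fell from 3 to 1, the DCs over the CX3CR1high macrophages rose to 2 and the CD11b+ cells over the CX3CR1high macrophages to 1. With the next brightest probe set of the 4 members that have several, chosen after seeing the data, counts were 3 for the DCs over the CD11b+ cells, 2 for the DCs and 1 for the CD11b+ cells over the CX3CR1high macrophages, 1 for the DCs over the CX3CR1- cells, 1 for the CX3CR1- cells over the CD11b+ cells and 2 for the CX3CR1high macrophages over the CD11b+ cells. The DCs over the CX3CR1- cells gave 1 with quantile normalization and with equal medians, and the DCs over the CX3CR1high macrophages gave 2 with equal medians and with the mean over probe sets. With the lower floor or none, the CX3CR1- cells over the DCs gave 2. Equal medians moved the median log2 ratio over all genes by -0.29 for the CX3CR1high macrophages and for the CD11b+ cells and by -0.20 for the CX3CR1- cells, each over the DCs, and quantile normalization by -0.11, -0.12 and -0.07. Beyond probe set choice, the cause of these moves was not tested. No paired analysis was possible because each population has 1 array. Signals near the floor limit the ratios of Pdcd1lg2 and Cd28.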
